A study of Bos taurus with 30 samples.

Results

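The levels of 3 microRNAs, bta-miR-192, bta-miR-215 and bta-miR-194, were examined in the arcuate nucleus (ARC) of bull calves. They were taken by name and account for 3 of the 1030 rows of the count table, and all 3 had reads in each of 30 libraries. The tissue came from 30 Holstein-Friesian bull calves, 1 library per calf, all sampled at 12 weeks of age. From 2 weeks of age, 15 calves on the high plane of nutrition (HI) were offered 1.5 kg of milk replacer in 10 litres daily with concentrates ad libitum, and 15 on the moderate plane (MOD) were offered 0.5 kg in 4 litres daily with 0.5 kg of concentrates. Both groups shared breed, sex and tissue, and the diet was the only labelled difference. The ARC is bulk tissue, in which fewer cells of a type and less RNA per cell cannot be told apart.

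A microRNA is a short RNA that lowers the output of messenger RNAs through pairing of its seed, the bases near its 5′ end. miR-192 and miR-215 carry the same seed and are treated as a family, while miR-194 has a different seed and is made from the same primary transcripts. The 3 are best known from liver, kidney and intestinal epithelium, where they are abundant and where the tumour suppressor p53 raises them. The ARC holds the hypothalamic neurons that sense metabolic state.

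The RefSeq annotation of the cattle assembly ARS-UCD2.0 places the genes at 2 loci. MIR192 and MIR194-2 both overlap EHD1, with CDC42BPG and ATG2A as the nearest coding genes on either side. MIR215 and MIR194-1 both overlap IARS2, between BPNT1 and RAB3GAP2. The annotation also lists MIR194B-2 over MIR194-2 and MIR194B over MIR194-1. A mature miR-194 read could therefore come from either locus, and the counts do not separate them. The reads of miR-194 were fractional in 18 of 30 libraries and those of miR-194b in 16. Those of miR-192 were not whole in 8, and those of miR-215 were whole in all 30. Reads were called whole within 0.1 of a read.

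The libraries held 6291376 to 21083250 reads assigned to microRNAs. In order of depth they fell on either side of a wide gap, with 21 shallower libraries (12 HI, 9 MOD) of at most 8988002 reads and 9 deeper ones (3 HI, 6 MOD) of at least 17193358. No libraries were duplicates, since in the closest of 435 pairs chi-square over its degrees of freedom came to 82.2. The 9 lowest animal codes in the labels (7 HI, 2 MOD, all shallower) stood apart from the other 21 (8 HI, 13 MOD) in values described below. What the code numbers stand for is not given in the sources used here. Markers of the pituitary, which lies beside the ARC, were high in 9 calves and low in 21. Of these 9 calves 5 were HI, and 4 of the 9 had codes among the lowest. The neuron list was detected in every library. Of its 10 names 2 pairs (miR-124a with miR-124b, and miR-129 with miR-129-5p) hold identical values, and with each pair counted once the summed levels were 19239 to 89153 CPM.

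miR-192 was by far the most abundant of the 3. Levels are the deposited CPM, reads of a microRNA per 1000000 reads of a library whose size the authors had scaled. Its mean was 5212 CPM ± 900 (SD, n = 30), from 4080 to 7889 with a median of 4932. It took the rank of 40 among 863 microRNAs with a read, between miR-92a at 5450 CPM and miR-182 at 5147 CPM, and its rank within single calves ran only from 35 to 42. miR-194 averaged 108.3 CPM ± 16.3, from 78.3 to 153.1 with a median of 106.3, and ranked 198, between miR-1185 and miR-105a. miR-215 averaged 56.7 CPM ± 32.4, from 16.7 to 122.1 with a median of 43.0, and ranked 244, between miR-199a-5p and miR-190b. The related names miR-194b and miR-194b-3p were far lower, at 0.633 CPM ± 0.197 and 0.947 CPM ± 0.300.

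The order of the members was the same in nearly every calf. The geometric mean of the ratio of miR-192 to miR-194 was 47.9, and miR-192 was higher in 30 of 30 calves. The ratio of miR-192 to miR-215 had a geometric mean of 107.1 and was also above 1 in 30 of 30 calves. miR-194 exceeded miR-215 in 29 of 30 calves, with a geometric mean ratio of 2.24. The exception, a MOD calf among the lowest codes, had a ratio of 0.806. Each mean log2 ratio differed from 0 by a two-sided sign-flip permutation test (p = 1e-05, the smallest that 100000 resamples can give).

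The members differed in how much they varied between calves. The SD of log2(CPM + 0.25) was 0.23 for miR-192 and 0.22 for miR-194, against a median of 0.37 over 476 tested microRNAs, of which 392 and 415 varied more. miR-215 had an SD of 0.88, and only 33 of 476 varied more. Its highest level was 7.32 times its lowest, while for miR-192 the factor was 1.93 and for miR-194 1.96. As a share of the reads counted these factors were 7.52 for miR-215, 1.40 for miR-192 and 1.99 for miR-194. Exact intervals for counting error were computed for the calves at the ends of the miR-215 range by reads counted. The part of counting error in the spread between calves was not tested. The calf lowest for miR-215 had 139 reads, or 15.6 CPM by reads counted (95% exact interval 13.1 to 18.4), and the calf highest by reads counted had 822, or 117.0 CPM (109.1 to 125.3). That calf had 106.1 CPM in the deposited values, in which another calf, with 737 reads, was highest. These intervals cover counting error only.

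**Figure D1:**
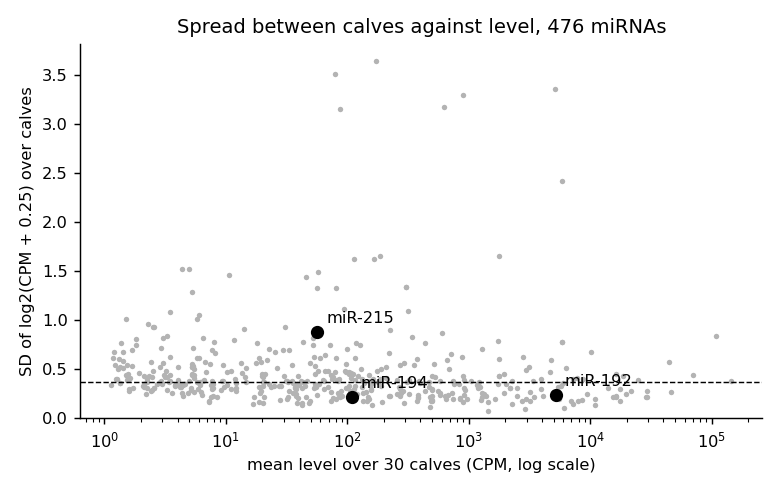
SD of log2(CPM + 0.25) over 30 calves (vertical axis) against mean level in CPM (horizontal axis, log scale) for 476 tested microRNAs in grey, with the 3 members in black and the median SD of 0.37 dashed. miR-215 lies above the line at 0.88, and miR-192 and miR-194 lie below it at 0.23 and 0.22.

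The diets were compared to ask whether early plane of nutrition was accompanied by a different level of each microRNA. miR-192 ran from 4144 to 7889 CPM with a median of 4794 in HI calves and from 4080 to 6012 CPM with a median of 4965 in MOD calves. The ranges overlapped from 4144 to 6012 CPM, and the 4 highest values were all in HI calves of the lowest codes. The difference between HI and MOD was 0.09 on the log2 scale (SE 0.09, 95% interval -0.09 to 0.26). miR-194 ran from 78.3 to 134.9 CPM with a median of 105.8 in HI and from 80.4 to 153.1 CPM with a median of 107.9 in MOD. The difference was -0.07 on the log2 scale (SE 0.08, interval -0.24 to 0.09). miR-215 ran from 16.7 to 103.9 CPM with a median of 38.5 in HI and from 19.7 to 122.1 CPM with a median of 61.6 in MOD. The difference was -0.32 on the log2 scale (SE 0.31, interval -0.95 to 0.31), the widest interval of the 3.

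None of the 3 differed between the diets by limma, with an adjusted p of 0.982 each (Benjamini-Hochberg over 476), and permutation tests gave 0.307 for miR-192, 0.359 for miR-194 and 0.326 for miR-215. A microRNA was called where its fold change exceeded 1.5 and its adjusted p was under 0.1. By that rule 0% of the 476 were called, and 21 (4.41%) had an unadjusted p under 0.05, none of them a member. edgeR called 0 and DESeq2 called 1, which was no member, on the reads of 29 libraries. Within the 21 other codes miR-192 was 4507 CPM ± 217 in 8 HI calves and 4936 CPM ± 507 in 13 MOD calves, a difference of -0.13 on the log2 scale (exact permutation p = 0.0360, unadjusted). limma on the same calves, a subset chosen after seeing the data, gave an unadjusted p of 0.0534 and an adjusted p of 0.95. As a share of the reads counted, miR-192 was 0.502% in those HI calves and 0.506% in those MOD calves, so the difference nearly vanished without the authors' scaling. Within the 9 lowest codes the difference was 0.21 in the other direction (exact permutation p = 0.167), and there were only 2 MOD calves.

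**Figure D2:**
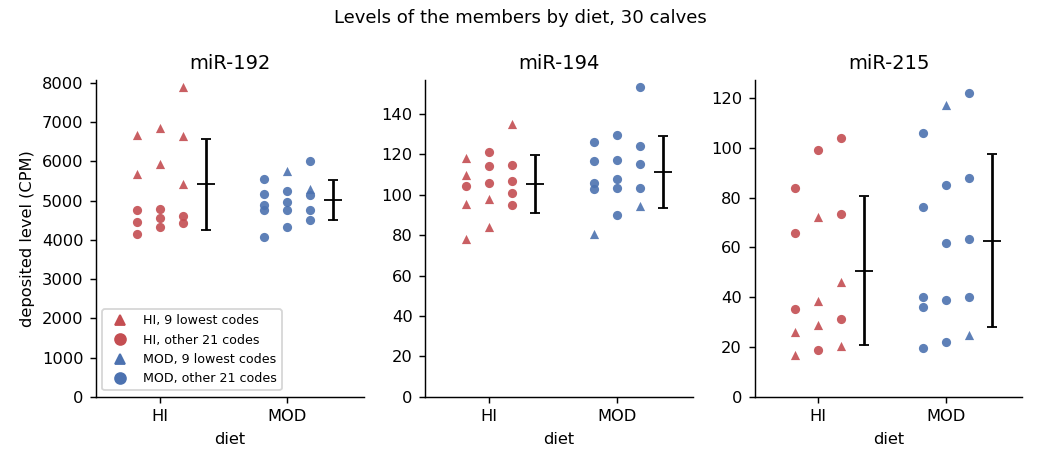
Deposited CPM of miR-192, miR-194 and miR-215 (vertical axes, from 0) in 15 HI and 15 MOD calves, with triangles for the 9 lowest animal codes and circles for the other 21. Black bars give the mean and SD, and the HI and MOD ranges overlap for all 3.

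The ratios between members did not separate the diets either. The mean log2 ratio of miR-192 to miR-194 was 0.16 higher in HI (permutation p = 0.122, adjusted over 3 ratios 0.351), that of miR-192 to miR-215 was 0.41 higher (p = 0.234, adjusted 0.351) and that of miR-194 to miR-215 was 0.25 higher (p = 0.419). Within the 21 other codes the same differences were -0.04, -0.18 and -0.14. With diet permuted only within the classes of codes they were -0.03 (p = 0.480), 0.10 (p = 0.769) and 0.13 (p = 0.697).

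The ratio of miR-192 to miR-194 followed the animal codes. A ratio within a library does not depend on how the library was scaled. It ran from 56.5 to 69.7 in the 9 lowest codes, with a mean of 63.5 ± 4.81, and from 37.7 to 50.1 in the other 21, with a mean of 42.8 ± 3.4, and the ranges did not overlap. Both diets were present on each side. Of 113050 ratios of 2 tested microRNAs, 0.927% did not overlap between the same calves, and of 476 levels 1.47% did not. The classes of codes were found from earlier results of these data, so no test of this separation is given.

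Each member's own level overlapped between the classes. miR-192 averaged 6237 CPM in the lowest codes and 4772 CPM in the others, and the ratio of geometric means was 1.30. By the reads counted in each library, without the authors' scaling, that ratio was 1.08. miR-194 averaged 99.3 CPM in the lowest codes and 112.2 CPM in the others. Its ratio of geometric means was 0.877, or 0.725 by reads counted. miR-215 averaged 43.4 CPM and 62.4 CPM, and its ratio of geometric means was 0.662. The direction of the 3 differences was the same under both scalings, and their sizes depended on the scaling.

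**Figure D3:**
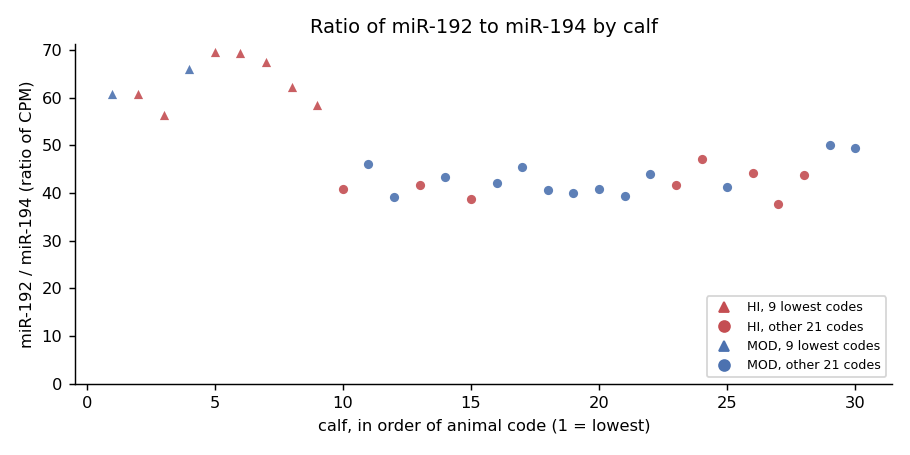
Ratio of miR-192 to miR-194 (vertical axis, from 0) for 30 calves in order of animal code (horizontal axis), coloured by diet. The 9 lowest codes sit between 56.5 and 69.7 and the other 21 between 37.7 and 50.1.

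Over all calves the SD of the log2 ratio of miR-192 to miR-194 was 0.29, against a median of 0.56 over the 113050 pairs, of which 5.79% had a smaller SD. After the mean of each class was removed it was 0.11, a fall that follows in part from how the classes were found. The ratios to miR-215 varied more, with SDs of 0.93 for miR-192 and 0.82 for miR-194 over all calves, and 83.0% and 77.3% of pairs had smaller ones.

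miR-192 and miR-194 were then compared across calves. Over 30 calves Pearson's r was 0.181 (permutation p = 0.336, Spearman's rho 0.147). Within the 21 other codes r was 0.752 (rho 0.610, and 0.524 once the 2 most distant calves were left out). Within the 9 lowest codes r was 0.934 (rho 0.95, and 0.850 without 2). No p is given for these, since the classes were found from values of these data. A scaling factor shared by both members moves them together, and with library size as the only scaling r within classes was 0.704, against 0.835 for the deposited values. In the 21 calves with low pituitary markers, where both classes of codes were mixed, r was -0.325 (p = 0.152).

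**Figure D4:**
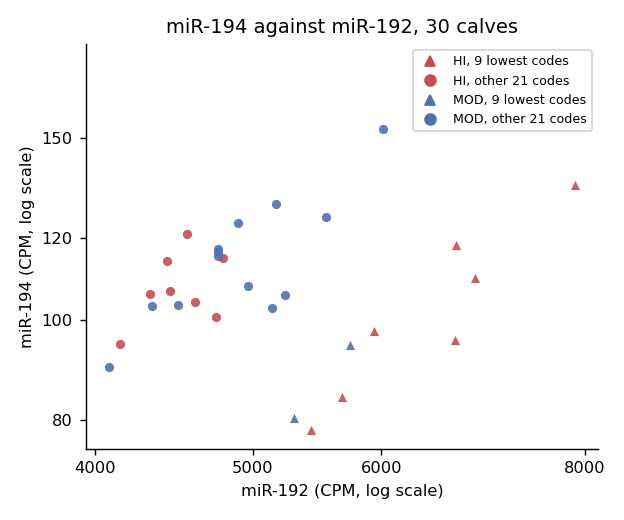
miR-194 against miR-192 in CPM (both axes log scale) for 30 calves, with triangles for the 9 lowest codes and circles for the other 21. The classes form separate bands, within which r was 0.934 and 0.752.

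miR-215 had an adjusted p under 0.05 with neither of the others over all calves. With miR-194, r was 0.393 over 30 calves (permutation p = 0.0321, adjusted 0.0963, rho 0.311), 0.196 without the 2 farthest calves and 0.306 with class means removed. Within the shallower libraries it was 0.586 (adjusted permutation p = 0.0145, 0.385 without the 2 farthest, and rho 0.516 with an adjusted p of 0.0550) and within the deeper ones -0.098. With miR-192, which shares its seed, r was -0.087 (permutation p = 0.647, rho -0.023).

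The ratio of miR-192 to miR-215 was uneven across calves. In order of size it had 2 gaps of 0.44 and 0.50 on the log2 scale, and no other gap was above 0.23. Below both lay 14 calves (6 HI, 8 MOD) with ratios of 44.3 to 82.8. Between them lay 7 calves (3 HI, 4 MOD) with ratios of 112.7 to 144.6. Above both lay 9 calves (6 HI, 3 MOD, 6 of them lowest codes) with ratios of 205.0 to 325.3. miR-215 ran from 61.6 to 122.1 CPM in the low run, from 31.3 to 46.1 CPM in the middle run and from 16.7 to 38.5 CPM in the high run, so its levels overlapped between the middle and high runs. The miR-192 levels overlapped between all 3 runs. The runs were seen after the values were ordered and have no test.

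**Figure D5:**
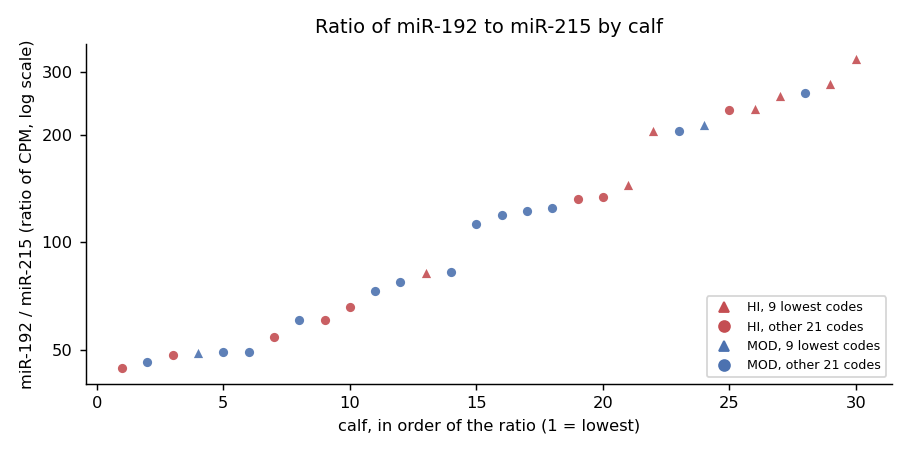
Ratio of miR-192 to miR-215 (vertical axis, log scale) for 30 calves ordered by that ratio (horizontal axis), coloured by diet and marked by class of codes. Gaps separate runs of 14, 7 and 9 calves, and each run holds both diets.

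Other microRNAs followed miR-192 and miR-194 in deposited CPM. Highest in Spearman's rho with miR-192 over 30 calves were miR-140 (0.824), miR-99b (0.802), miR-151-3p (0.798), miR-1468 (0.783) and miR-11977 (0.771), and lowest was miR-708 (-0.829). With miR-194 the highest were miR-186 (0.747), miR-574 (0.736), miR-30b-5p (0.735), miR-335 (0.705) and miR-130a (0.701), and the lowest was miR-876 (-0.764). miR-215 followed few, with miR-378d (0.503), miR-12034 (0.423), miR-11986b (0.392), miR-145 (0.389) and miR-2454-3p (0.375) at the top and miR-191b (-0.450) at the bottom. Of 473 microRNAs, 144 were beyond 0.5 in size of rho with miR-192, 76 with miR-194 and 1 with miR-215. These points share the libraries and their scaling and are given as a description.

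Other microRNAs of liver and gut had medians below that of miR-192, and those of miR-885 and miR-375 were above the medians of miR-194 and miR-215. On the liver list, miR-122, the most abundant microRNA of hepatocytes, had a median of 0.207 CPM and was at or under 3 reads in 20 of 30 libraries, with a highest value of 14.2 CPM. miR-483 had a median of 0.547 CPM, and miR-885 had a median of 132 CPM. On the epithelial list, miR-31 had a median of 49.1 CPM and miR-375 one of 760.7 CPM. The mean of miR-375 was 5809 CPM, above that of miR-192, and its highest value was 47575 CPM. The miR-200 family was low in the 21 calves with low pituitary markers and high in the other 9, with medians of 2.93 CPM for miR-200a, 0.799 for miR-200b, 2.81 for miR-200c, 27.4 for miR-141 and 1.33 for miR-429, and highest values of 275 to 6120 CPM. Of the 7 epithelial microRNAs with values, 6 are also on the pituitary list that divided these calves, so their split is no finding. miR-31, which is on the epithelial list alone, averaged 211 CPM in the 9 and 43.7 CPM in the 21. miR-802 and miR-203 were not analysed here. Of the members of either list that were tested, 0 of 1 and 0 of 6 passed the diet test.

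Levels of other cell types moved with the members in deposited CPM. Of 39 relations of a member with a list of cell type markers, 4 had an adjusted p under 0.05 for Pearson's r and 1 for Spearman's rho. The relations over all calves were 27, and the other 12, with the pituitary and epithelial lists, were computed within the 9 calves high and the 21 low for pituitary markers. In the 9, miR-192 gave r = 0.763 with the epithelial and 0.721 with the pituitary list, and miR-194 gave 0.717 and 0.752 (adjusted exact permutation p = 0.0836, 0.118, 0.0836 and 0.0836). Without the 2 farthest of the 9 calves they were 0.799 and 0.771 for miR-192 but 0.437 and 0.381 for miR-194. In the 21, r for the same 4 relations ran from -0.050 to 0.124. miR-192 fell as the neuron list rose (r = -0.801, rho = -0.782, adjusted permutation p = 0.00039 for both, -0.779 without the 2 farthest calves, and -0.809 with class means removed). It rose with the smooth muscle and pericyte list (r = 0.614, adjusted p = 0.00682, rho = 0.518, 0.486 without 2, and 0.685 with class means removed), as did miR-194 (r = 0.570, adjusted p = 0.0136, rho = 0.481, 0.388 without 2, and 0.754 with class means removed). miR-194 fell as the neuron list rose (r = -0.514, adjusted p = 0.0407, rho = -0.338). Over all calves r was -0.191 without the 2 farthest calves, and with class means removed it was -0.837. With the identical names of the neuron list counted once, a setting chosen after seeing the data, r was -0.473 for miR-194 and no longer passed (adjusted permutation p = 0.0721), and for miR-192 it was -0.819 (adjusted permutation p = 0.00039). Without the 9 calves high for pituitary markers the relations with smooth muscle no longer passed, at 0.198 for miR-192 and 0.053 for miR-194 (adjusted permutation p = 0.918 and 0.925), and that of miR-194 with neuron was 0.280. With library size as the only scaling all 4 relations missed the threshold, at -0.095, -0.058, 0.016 and 0.370 in the order given, so 2 of them changed sign. miR-215 passed with no list. In the 9 calves with high pituitary markers miR-194 averaged 120.8 CPM against 103.0 CPM in the 21 with low ones, and miR-192 5864 against 4932. As a share of the reads counted neither difference was seen, with 0.0108% and 0.0109% for miR-194 and 0.517% and 0.516% for miR-192. The part of these cell types in the members' levels was not tested.

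In deposited CPM the depth of the libraries did not separate the members at the threshold. With diet in the model, 0% of 476 microRNAs differed between deeper and shallower libraries by limma, and miR-192 differed by -0.16 on the log2 scale (SE 0.09, adjusted p = 0.783). The plain difference for miR-192 was -0.17 (permutation p = 0.0657), and it was -0.01 among the 21 other codes alone (exact permutation p = 0.910). Over all calves, with library size as the only scaling, the difference for miR-192 was -0.15 (permutation p = 0.000490). By that scaling miR-192 took 0.478% of the reads in the 9 deeper libraries and 0.532% in the 21 shallower ones. Its mean over the 21 other codes, which include all 9 deeper libraries, was 0.505%. No test by that scaling is given here for the other codes alone. All 9 lowest codes were shallower, so depth and code class overlap in these calves.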

How the data were processed

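Small RNA was sequenced from the ARC of 30 calves. Per the methods, the authors trimmed adapters with Cutadapt, kept reads of 15 to 28 bases, removed other short RNAs and counted known microRNAs with miRDeep2 against ARS-UCD1.2. The labels name a stranded RNA kit and the methods a small RNA kit. The submitters' processing notes list FastQC 0.11.8, cutadapt 2.6, R 3.4 and edgeR 3.5. The deposited values are a signal of CPM form over TMM-scaled library sizes, as read from the values, and how they were scaled is not given in the sources used here. Whole reads were recovered from the step of the values in each library. Over values under 200 reads, 94.5% or more were whole in each library. In a separate check on the lowest values alone, 1 HI library came just under the limit for recovered reads and was left out of the edgeR and DESeq2 tests only, so those rest on 29 libraries, although its share under 200 reads (95.5%) was within the range of the others.

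Diets were compared with limma 3.58.1 (trend) in R 4.3.3 on log2(CPM + 0.25), with 476 microRNAs kept by the edgeR 4.0.16 filter on expression, and p-values were adjusted over all of them. DESeq2 1.42.0 was an alternative. Other tests were two-sided permutations in Python (scipy 1.17.1), exact where all regroupings could be enumerated and otherwise with 100000 resamples. Permutations of diet within the classes of codes used fewer resamples. Fold changes are on the log2(CPM + 0.25) scale and understate those of low microRNAs. Each library is a separate calf. Named microRNAs are the members, other names that start with theirs, the 5 most alike and 1 least alike to each by rho, those of the liver and gut list, and those next in rank. The list relations were adjusted together over members and lists, as 39. The spread of the ratios over all pairs was computed after the values were seen. Scripts were tested on simulated data. The members, the marker lists and the classes of animal codes were chosen with earlier results of these data known.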

Additional observations from a re-analysis of the deposited data

How the results depend on the processing

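No member was called between the diets under any of the 14 alternatives or without any 1 calf. Leaving out each calf in turn kept the direction of each diet difference, which ran from 0.05 to 0.11 for miR-192, from -0.42 to -0.22 for miR-215 and from -0.11 to -0.04 for miR-194 on the log2 scale. The log2 ratio differences ran from 0.13 to 0.20, from 0.31 to 0.51 and from 0.15 to 0.36. The mean log2 ratios stayed within 5.56 to 5.59, 6.69 to 6.79 and 1.11 to 1.21.

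Over the 14 alternatives the diet differences ran from -0.13 to 0.13 for miR-192, from -0.55 to 0.05 for miR-215 and from -0.13 to 0.04 for miR-194. The values of -0.55 and -0.13 for miR-215 and miR-194, and ratio differences of 0.60 for miR-192 to miR-215 and 0.42 for miR-194 to miR-215, came without the calves high for pituitary markers.

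The diet difference of miR-192 turned to -0.045 with the class of codes as a term and to -0.13 without the 9 lowest codes, and that of miR-215 turned to 0.053 without them. With library size and class of codes together, that of miR-194 turned to 0.043. The ratio differences turned to -0.041, -0.18 and -0.14 without the lowest codes. That of miR-192 to miR-194 was -0.066 in deeper libraries and -0.031 with diet permuted within classes. These last settings, and those below with class means removed or 1 class alone, were chosen after seeing the data. The depth difference of miR-192 passed the threshold with library size only (-0.15, permutation p = 0.000490), and that of miR-194 turned to -0.0076 without the lowest codes.

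The correlation of miR-192 with miR-194 was -0.325 without the calves high for pituitary markers. It was 0.752 without the lowest codes, 0.934 in the lowest codes alone, 0.835 with class means removed and 0.704 with library size only as well. That of miR-192 with miR-215 turned to 0.329, 0.117 and 0.248 under the first 3 of these.

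Correlations with the marker lists turned sign most often with library size only. miR-192 then gave -0.236 with liver, -0.431 with erythroid, -0.514 with endothelium, -0.058 with smooth muscle, 0.109 with choroid plexus and 0.125 with p53-responsive markers. miR-194 gave -0.106 with endothelium, 0.370 with neuron, 0.312 with choroid plexus and 0.340 with p53-responsive markers, and miR-215 gave 0.185 with neuron. With a pseudocount of 1 CPM miR-192 gave -0.047 with liver. Without the calves high for pituitary markers, miR-215 gave -0.191 with erythroid, -0.034 with leukocyte, -0.059 with endothelium and 0.157 with neuron. There miR-194 gave -0.100 with erythroid, -0.189 with endothelium, 0.280 with neuron, 0.078 with choroid plexus and 0.085 with p53-responsive markers, and miR-192 gave 0.518 with oligodendrocyte. Without the lowest codes, miR-215 gave -0.108 with liver and -0.138 with p53-responsive markers, miR-192 gave 0.416 with leukocyte and miR-194 gave 0.137 with choroid plexus. The cause was not tested in any of these. No paired analysis was possible because each calf belongs to 1 diet and the labels pair no calves. The lowest count for miR-215 was 139 reads in a library.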
